A study of Mus musculus with 8 samples.

Results

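Oxidative phosphorylation is carried out by the respiratory complexes I to IV and by ATP synthase, here called complex V, all in the inner mitochondrial membrane. The subunit genes were taken by symbol: those that begin with Nduf and a letter for a structural subunit, the Sdh genes, and those that begin with Uqcr, Cox (isoform-lettered) or Atp5. The assembly factors and pseudogenes were left out, as was Ndufa4l2. The rule found 81 of the 23389 gene symbols listed, with 35 in complex I, 4 in complex II, 8 in complex III, 17 in complex IV and 15 in complex V. The other 2, Atp5s and Atp5sl, carry the Atp5 name but are not synthase subunits. The rule uses symbols and no measured value, but it was set with earlier results of these data known.

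Complexes I and II pass electrons from NADH and succinate to ubiquinone, complex III passes them on to cytochrome c, and complex IV to oxygen. Complexes I, III and IV pump protons, and ATP synthase uses the gradient to make ATP. Most subunits are encoded in the nucleus and a few in mitochondrial DNA, and several subunits of complex IV and the c subunit of ATP synthase have alternative genes, some named for heart and skeletal muscle or for testis. Pluripotent cells are known for high glycolysis, and mouse embryonic stem (ES) cells in the naive state also respire. Of 13 genes in mitochondrial DNA looked up by symbol, 0 were listed in the deposited tables. They could not be analysed, and the summed RPKM of all symbols leaves them out.

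RNA was measured in 8 mouse libraries, as deposited RPKM, reads scaled to gene length and library size. The 3F+IL6 iPS group holds 2 induced pluripotent stem clones made from fibroblasts with Oct4, Klf4 and Sox2 and treated with IL6 at 10 ng/mL, on a BALB/c background. The 4F iPS group holds 2 BALB/c clones that the labels call 4F, the usual name for these factors with c-Myc. The ES group holds 2 libraries of the single line D3-GFP, on a 129S2/SvPas background, and the MEF group 2 libraries of BALB/c embryonic fibroblasts. Per the labels, the clones come from separate derivations, while the pairs of ES and MEF libraries are biological replicates of 1 line and of 1 cell type. Strain and cell type therefore cannot be told apart in any comparison with ES cells, nor IL6 and the factor set in 3F+IL6 against 4F.

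Estimated depth was 11800000 to 18200000 reads a library. All 8 pluripotency markers were higher in each pluripotent group than in MEF and were not at 0 in MEF, where they summed to 6.81 to 8.51 RPKM, against 4973 to 6110 RPKM in pluripotent libraries. The 12 fibroblast markers summed to 433 to 562 RPKM in 3F+IL6, 334 to 383 RPKM in 4F, 201 to 203 RPKM in ES and 8025 to 8045 RPKM in MEF, with none at 0 in any library. On the third principal component, with 2.34% of the variance, the score of the second 3F+IL6 clone was -30.4, far from the first clone at -2.77 and from the range of -2.47 to 16.4 of the other libraries. The median difference between the libraries of a pair was 0.07 on the log2 scale over the subunit genes in 3F+IL6 clones and 0.07 in 4F clones, against 0.04 in ES and 0.04 in MEF. Over all tested genes it was 0.18 in 3F+IL6, 0.10 in 4F, 0.06 in ES and 0.05 in MEF.

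The subunit genes were expressed at high levels in every library. Together the genes of complexes I to V made up 2.87% ± 0.032 of all summed RPKM in 3F+IL6, 3.02% ± 0.059 in 4F, 2.92% ± 0.018 in ES and 2.01% ± 0.0022 in MEF (SD, n = 2 each). Their summed level was 15903 and 15741 RPKM in 3F+IL6, 17478 and 16649 RPKM in 4F, 15476 and 15248 RPKM in ES and 9504 and 9490 RPKM in MEF. The pluripotent libraries therefore all lay above both MEF libraries in total. In bulk RNA, fewer cells of a type and less RNA per cell cannot be told apart, so these are levels per unit of sequenced RNA.

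Levels were uneven between and within complexes. The median RPKM of complex I subunits averaged 94.4 in 3F+IL6, 100.5 in 4F, 93.5 in ES and 62.3 in MEF, and that of complex V 308 in 3F+IL6, 328 in 4F, 294 in ES and 174 in MEF. Atp5b, the catalytic beta subunit, had the highest level of all members, at 1254 and 1160 RPKM in 3F+IL6, 1321 and 1296 RPKM in 4F, 1252 and 1234 RPKM in ES and 795 and 802 RPKM in MEF. The lowest among the tested members of complexes I to V was Cox7b2, a testis form of a complex IV subunit, with a mean of 7.12 RPKM over the 8 libraries. A gene entered the tests with at least 1 RPKM in at least 2 libraries, which 13200 genes did. Of the 81 members, 77 had at least 1 RPKM in every library, Cox7b2 passed only through the pluripotent libraries, and Cox6a2, Cox8b and Cox8c were not tested. Cox7b2 stays in the counts of called members below. Its calls against MEF and ES are not support there, since the filter used the libraries where it is high.

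**Figure D1:**
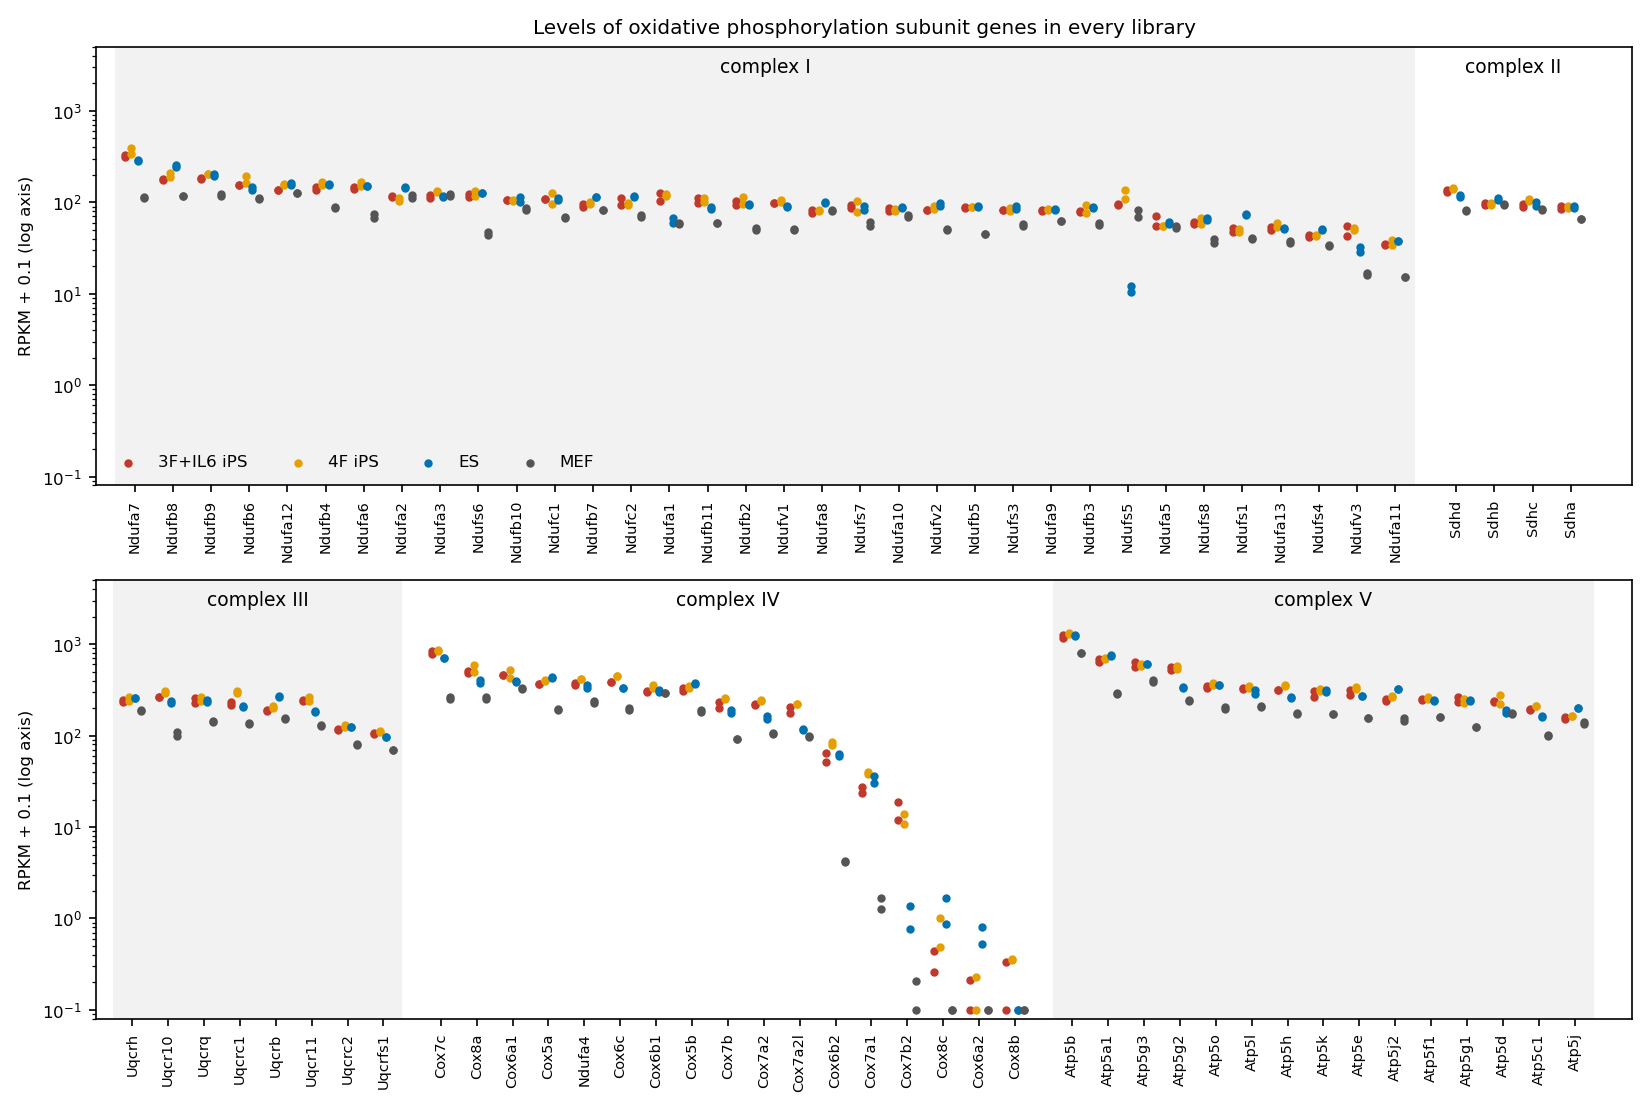
Level of subunit genes of complexes I to V in the 8 libraries, as RPKM plus 0.1 on a log axis, with a point for each library and the genes of a complex ordered by mean level. The MEF points lie lowest for most genes; Ndufs5 in ES and Cox6b2, Cox7a1 and Cox7b2 in MEF stand far below the other groups, and Cox8c, Cox6a2 and Cox8b are at or near 0.

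The first question was how subunit expression in pluripotent cells compares with that in fibroblasts. Of the 78 tested members, limma called 69 higher and 0 lower in 3F+IL6 than in MEF, 73 higher and 0 lower in 4F, and 71 higher and 1 lower in ES, at an adjusted p under 0.05. Among all tested genes, 49.4% were called higher and 32.6% lower in 3F+IL6, 49.2% and 34.4% in 4F, and 49.7% and 32% in ES. The median log2 difference of the members was 0.68 in 3F+IL6, 0.80 in 4F and 0.62 in ES, against 0.26, 0.25 and 0.27 over all tested genes. In 72 of 78 members all 6 pluripotent libraries lay above both MEF libraries and in 0 they lay below; over all tested genes 45.4% lay above and 29.1% below. The 6 members whose libraries overlapped were Atp5d, Ndufa2, Ndufa3, Ndufa8, Ndufs5 and Sdhb. The 3 comparisons share the MEF libraries. Without the 3F+IL6 clone that stood apart, 69 members were higher and 0 lower in 3F+IL6.

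The size of the shift depended on the scaling. With every library rescaled to the same sum (TPM scale), the median of all genes over MEF was 0.09 in 3F+IL6, 0.06 in 4F and 0.16 in ES, and that of the members 0.48, 0.56 and 0.48. Then 59 of 79 tested members, with Cox8c now among them, were higher and 6 lower in 3F+IL6, 63 and 3 in 4F, and 66 and 2 in ES. Of the 14187 genes tested on this scale, 6118 were higher and 5287 lower in 3F+IL6. The counts were 5953 and 5632 in 4F, and 6275 and 4971 in ES.

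**Figure D2:**
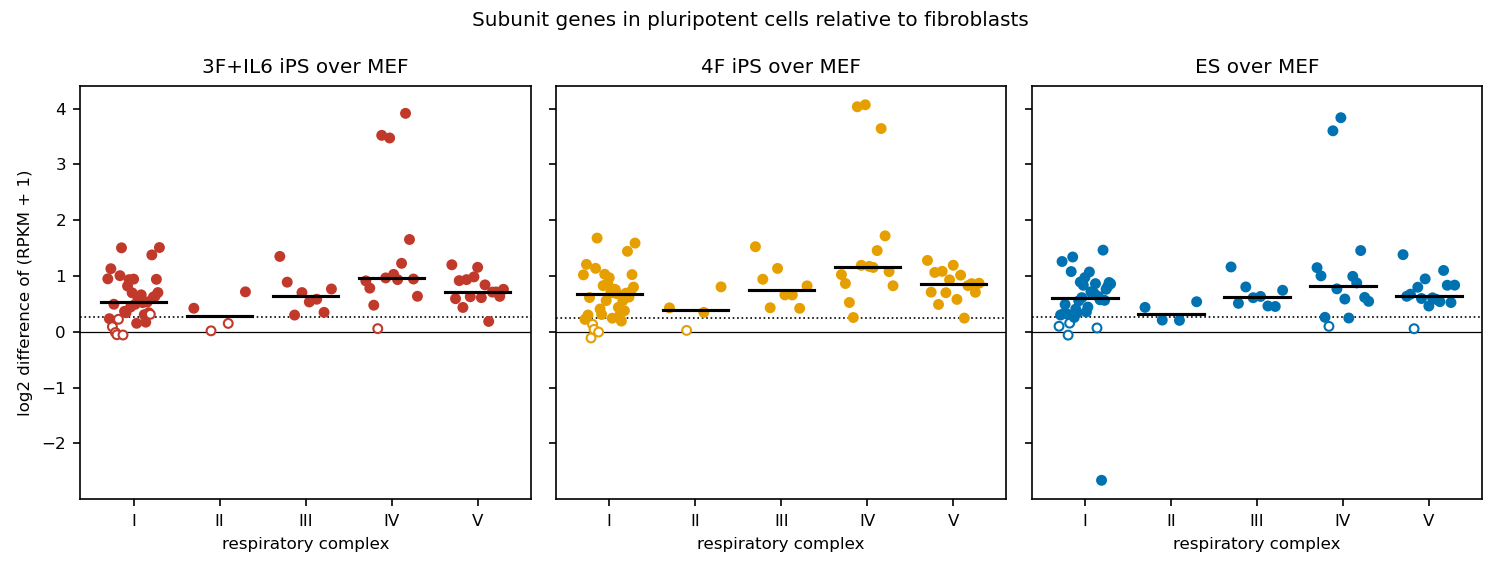
Log2 difference of log2(RPKM + 1) over MEF for each tested subunit gene, by complex, in 3F+IL6 clones, 4F clones and ES cells; filled points were called by limma, bars are the medians of a complex and the dotted line is the median of all tested genes. All 5 medians lie above the dotted line in each panel; 3 complex IV genes exceed 3 in the clones and 2 in ES, and Ndufs5 lies at -2.66 in ES.

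Complex I, which oxidises NADH, had 29 of 35 tested subunits higher in 3F+IL6, 31 in 4F and 30 in ES than in MEF, with medians of 0.54, 0.68 and 0.61. Ndufa7, an accessory subunit and the complex I gene with the highest mean level, was at 316 and 332 RPKM in 3F+IL6, 395 and 339 RPKM in 4F, 286 and 292 RPKM in ES and 114 and 113 RPKM in MEF. Its log2 difference over MEF was 1.51 in 3F+IL6, 1.68 in 4F and 1.34 in ES. Ndufv3, an accessory subunit of the NADH-binding module, was at 55.0 and 42.4 RPKM in 3F+IL6, 52.6 and 49.6 RPKM in 4F, 32.3 and 28.7 RPKM in ES and 16.6 and 16.0 RPKM in MEF, so that the groups formed 3 levels with the clones highest. Ndufs6, an accessory subunit of the same electron-input arm, rose by 1.38 in 3F+IL6, 1.44 in 4F and 1.46 in ES. The core subunit Ndufv1, which holds the NADH site, was at 97.7 and 99.1 RPKM in 3F+IL6, 107 and 102 RPKM in 4F, 90.3 and 89.1 RPKM in ES and 50.2 and 51.4 RPKM in MEF.

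Several accessory subunits of complex I did not follow this shift. Ndufa3 was at 111 and 121 RPKM in 3F+IL6, 129 and 135 RPKM in 4F, 116 and 114 RPKM in ES and 123 and 117 RPKM in MEF, and was called in none of the 3 comparisons. Ndufa8 was at 82.3 and 76.0 RPKM in 3F+IL6, 83.0 and 81.2 RPKM in 4F, 97.3 and 99.9 RPKM in ES and 83.3 and 81.3 RPKM in MEF. It was higher than MEF in ES but not in the clones. Ndufa5 was not called in any group over MEF, Ndufa2 in neither kind of clone, Ndufa12 and Ndufs5 not in 3F+IL6, and Ndufa1 not in ES. On the TPM scale Ndufa2 and Ndufa8 were lower in both kinds of clone than in MEF, Ndufa12 in 3F+IL6, and Ndufa3 in 3F+IL6 and ES.

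Complex II, succinate dehydrogenase, which has no mitochondrially encoded subunit, shifted least. Sdha, the flavoprotein, was at 91.5 and 84.6 RPKM in 3F+IL6, 90.2 and 86.7 RPKM in 4F, 87.5 and 90.4 RPKM in ES and 65.1 and 65.6 RPKM in MEF. Sdhb, the iron-sulphur subunit, was at 93.1 and 96.99 RPKM in 3F+IL6, 97.6 and 93.5 RPKM in 4F, 112 and 105 RPKM in ES and 94.8 and 92.8 RPKM in MEF. The 3 pluripotent groups lay above MEF for Sdha, whereas for Sdhb the clones overlapped MEF and ES alone lay above it. The membrane anchors were Sdhc, at 96.1 and 88.4 RPKM in 3F+IL6, 109 and 103 RPKM in 4F, 99.8 and 91.8 RPKM in ES and 84.0 and 81.8 RPKM in MEF, and Sdhd. Sdhd was at 136 and 130 RPKM in 3F+IL6, 144 and 139 RPKM in 4F, 115 and 119 RPKM in ES and 81.5 and 79.4 RPKM in MEF, with log2 differences over MEF of 0.72, 0.81 and 0.54. Over MEF, 2 of the 4 genes were higher in 3F+IL6, 3 in 4F and 4 in ES, with medians of 0.29, 0.39 and 0.32. Of all tested genes, 49.4%, 49.2% and 49.7% were higher, with medians of 0.26, 0.25 and 0.27. On the TPM scale Sdhb was lower in both kinds of clone than in MEF. The complex II median in 3F+IL6 was then 0.07, below the 0.09 of all genes.

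All 8 complex III subunits were higher than MEF in each pluripotent group, with medians of 0.64 in 3F+IL6, 0.74 in 4F and 0.62 in ES. Uqcr10, a small subunit, was at 267 and 265 RPKM in 3F+IL6, 311 and 290.4 RPKM in 4F, 238 and 229 RPKM in ES and 109 and 98.9 RPKM in MEF, so that every pluripotent library lay well above both MEF libraries. Uqcrh, the hinge protein, had the highest mean level of the complex, at 235 and 244 RPKM in 3F+IL6, 242 and 262 RPKM in 4F, 255 and 260.1 RPKM in ES and 186 and 189 RPKM in MEF.

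In ATP synthase, 15 of 15 subunits were higher than MEF in 3F+IL6, 15 in 4F and 14 in ES, with medians of 0.71, 0.86 and 0.64. Atp5d, the delta subunit of the central stalk, was the exception in ES. The catalytic-head gene Atp5a1, for the alpha subunit, was at 695 and 631 RPKM in 3F+IL6, 713 and 686 RPKM in 4F, 752 and 750.1 RPKM in ES and 291 and 284 RPKM in MEF. Its log2 difference over MEF was 1.20 in 3F+IL6, 1.28 in 4F and 1.38 in ES, whereas that of Atp5b, its partner in the head, was 0.59, 0.71 and 0.64. The 2 Atp5-named genes outside the synthase were both higher in all 3 groups. Atp5sl, known as Dmac2 and linked to complex I assembly, was at 14.4 and 16.5 RPKM in 3F+IL6, 15.0 and 14.7 RPKM in 4F, 16.3 and 13.6 RPKM in ES and 2.80 and 2.72 RPKM in MEF. Its difference of 2.08 in ES (SE 0.10, limma adjusted p = 1.5e-06) was the third largest upward difference there among members with a mean of at least 5 RPKM in the higher group.

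Complex IV, cytochrome c oxidase, had the highest median difference over MEF of the 5 complexes in each pluripotent group. By the levels, this rank would hold in both kinds of clone without the tissue-type genes Cox6b2, Cox7a1 and Cox7b2, but not in ES. Of 14 tested members, 13 were higher in 3F+IL6, 14 in 4F and 13 in ES, with medians of 0.96, 1.16 and 0.82. Each count includes Cox7b2, which passed the filter only through the pluripotent libraries. Cox7c, a small subunit with no alternative gene and the highest mean level of the complex, was at 839 and 789 RPKM in 3F+IL6, 868 and 834 RPKM in 4F, 710.2 and 707 RPKM in ES and 251 and 264 RPKM in MEF. All pluripotent libraries lay far above MEF, and the log2 difference over MEF was 1.65 in 3F+IL6, 1.72 in 4F and 1.46 in ES. Cox6b1 was the member not called in 3F+IL6 and in ES, and on the TPM scale it was lower in 3F+IL6 than in MEF.

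The largest differences over MEF lay in genes for tissue-type subunits of complex IV. Cox6b2 (chromosome 7, 4751792 to 4753094), the testis form of the subunit that faces the intermembrane space, was at 64.7 and 51.0 RPKM in 3F+IL6, 85.2 and 79.7 RPKM in 4F, 62.6 and 59.2 RPKM in ES and 4.14 and 4.05 RPKM in MEF. All pluripotent libraries had at least 51.0 RPKM. The log2 difference over MEF was 3.52 in 3F+IL6 (SE 0.11, limma adjusted p = 1.9e-07), 4.03 in 4F (adjusted p = 1.1e-07) and 3.60 in ES (adjusted p = 1.5e-07). Its general partner Cox6b1 (chromosome 7, 30616861 to 30626151) was at 308 and 296 RPKM in 3F+IL6, 360.4 and 334 RPKM in 4F, 303 and 319 RPKM in ES and 290.5 and 290.0 RPKM in MEF. Cox6b2 thus made up 16.0% ± 1.9 of the summed RPKM of this pair in 3F+IL6, 19.2% ± 0.092 in 4F, 16.4% ± 1.0 in ES and 1.39% ± 0.020 in MEF (SD, n = 2 each).

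Cox7a1 (chromosome 7, 30184144 to 30186078), the heart and skeletal muscle form of subunit 7a, was at 27.3 and 23.3 RPKM in 3F+IL6, 39.6 and 37.7 RPKM in 4F, 35.8 and 29.98 RPKM in ES and 1.55 and 1.18 RPKM in MEF. The log2 difference over MEF was 3.47 in 3F+IL6 (SE 0.12, limma adjusted p = 3.5e-07), 4.07 in 4F (adjusted p = 1.7e-07) and 3.84 in ES (adjusted p = 2.0e-07). Cox7a2 (chromosome 9, 79755361 to 79759878), the form found in most tissues, was at 220 and 214 RPKM in 3F+IL6, 237 and 242 RPKM in 4F, 166 and 154 RPKM in ES and 104 and 107 RPKM in MEF. Both forms were therefore higher in pluripotent cells, and Cox7a1 held 10.4% ± 0.87 of the pair in 3F+IL6, 13.9% ± 0.58 in 4F, 17.1% ± 1.0 in ES and 1.28% ± 0.27 in MEF. Cox7a2l, a related protein that joins complexes III and IV into supercomplexes, was at 203 and 175 RPKM in 3F+IL6, 221 and 219 RPKM in 4F, 119 and 114 RPKM in ES and 98.8 and 97.6 RPKM in MEF.

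Cox7b2 (chromosome 5, 71442824 to 71548205) set the clones apart from ES as well as from MEF. It was at 11.9 and 18.5 RPKM in 3F+IL6, 10.7 and 13.8 RPKM in 4F, 1.25 and 0.658 RPKM in ES and 0 and 0.108 RPKM in MEF, so that no clone library overlapped an ES or MEF library. On the log2(RPKM + 1) scale, which understates changes from such low values, the difference over MEF was 3.92 in 3F+IL6 and 3.64 in 4F, and over ES 3.04 in 3F+IL6 and 2.77 in 4F. Since the gene entered the tests only through the libraries where it is high, these differences are descriptions and are given with no p. Its general partner Cox7b was at 233 and 201 RPKM in 3F+IL6, 249.2 and 258 RPKM in 4F, 190 and 178 RPKM in ES and 91.9 and 91.6 RPKM in MEF. Cox7b2 reached 6.66% ± 2.5 of the pair in 3F+IL6 and 4.59% ± 0.68 in 4F, against 0.512% ± 0.20 in ES and 0.059% ± 0.083 in MEF.

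Not every tissue-type gene was on. Cox6a2 and Cox8b, the heart and skeletal muscle forms, reached at most 0.710 and 0.263 RPKM in any library, and Cox8c, a testis form, at most 1.59 RPKM, in ES 1. Their general partners carried the families: Cox6a1 was at 457 and 454 RPKM in 3F+IL6, 523 and 424 RPKM in 4F, 390.0 and 394 RPKM in ES and 329 and 325 RPKM in MEF, and Cox8a at 507 and 484 RPKM in 3F+IL6, 589 and 501 RPKM in 4F, 409 and 380.1 RPKM in ES and 262 and 251 RPKM in MEF. Of 10 striated muscle markers, 4 were tested, and the list summed to 8.71 to 11.1 RPKM in 3F+IL6, 18.3 to 19.9 RPKM in 4F, 20.3 to 20.5 RPKM in ES and 32.7 to 33.7 RPKM in MEF, while Cox7a1 was lowest in MEF. Myl2 and Myh6 were at 0 in both MEF libraries, and Ckm, Myog, Myod1 and Tnnt2 each in 1 ES or MEF library. Over ES, 0 were higher and 2 lower in 3F+IL6 and 1 and 2 in 4F; over MEF, 1 and 2 in 3F+IL6, 1 and 3 in 4F and 2 and 2 in ES. The 6 germ cell markers summed to 36.8 to 38.9 RPKM in 3F+IL6, 40.6 to 43.2 RPKM in 4F, 154 to 159 RPKM in ES and 1.15 to 1.40 RPKM in MEF, where Stk31 was at 0 in both libraries and Taf7l in 1. All 6 were higher in each pluripotent group than in MEF, and over ES 1 was higher and 5 lower in each kind of clone. The part of either list in the levels of Cox6b2, Cox7a1 and Cox7b2 was not tested.

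**Figure D3:**
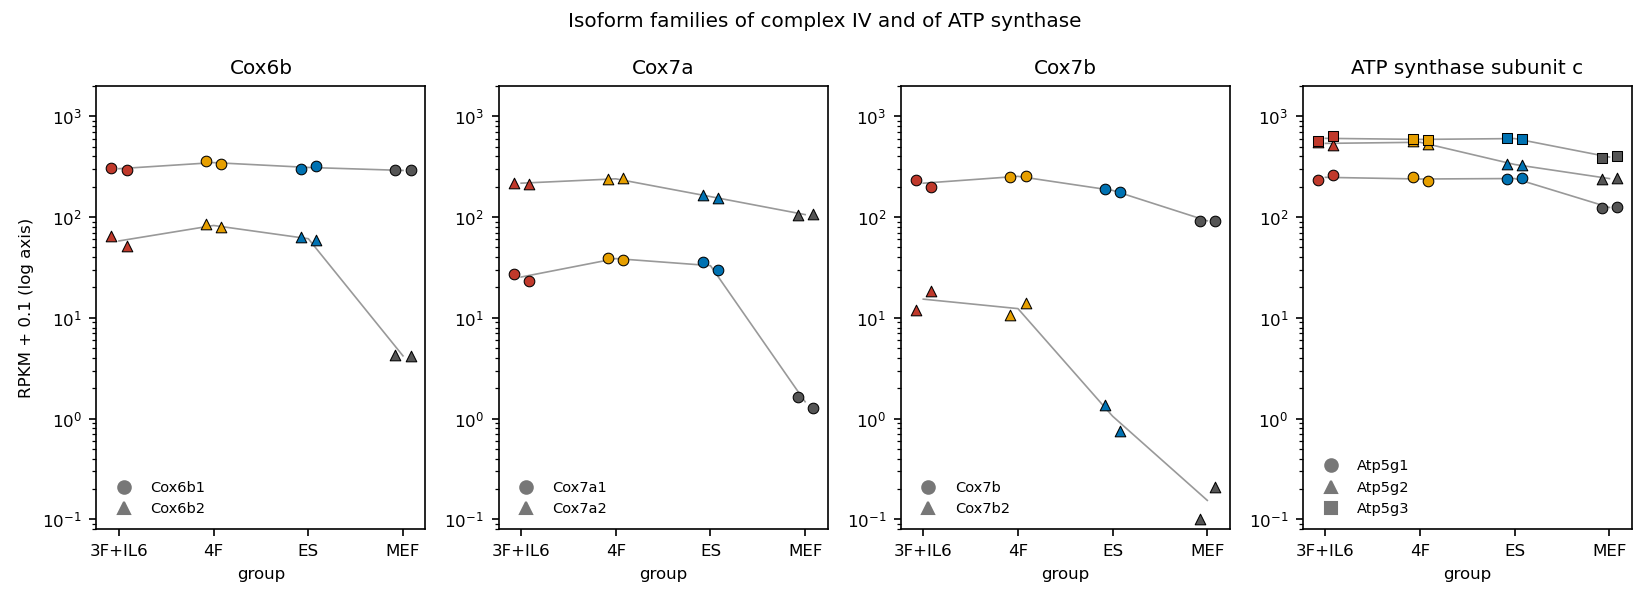
RPKM plus 0.1 on a log axis for the alternative genes of subunits Cox6b, Cox7a and Cox7b of complex IV and of the ATP synthase c subunit, with a point for each library and lines through the group means. Cox6b2 and Cox7a1 fall away in MEF and Cox7b2 in both ES and MEF, while their general partners differ less between the groups.

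The start regions of 2 of these pairs are shown for a direct comparison of a tissue-type gene with its general partner. Each line is 300 bases of mm10 (RefSeq, GRCm38.p6) read along the gene's strand, from 250 bases before the annotated start to 50 bases after it. The regions are chr7:4753045-4753344, minus strand, for Cox6b2, chr7:30626065-30626364, minus strand, for Cox6b1, chr7:30183921-30184220, plus strand, for Cox7a1, and chr9:79759804-79760103, minus strand, for Cox7a2. Capitals mark CCAAT boxes, GC boxes (GGGCGG) and the ETS core CCGGAAG, on either strand.
Cox6b2: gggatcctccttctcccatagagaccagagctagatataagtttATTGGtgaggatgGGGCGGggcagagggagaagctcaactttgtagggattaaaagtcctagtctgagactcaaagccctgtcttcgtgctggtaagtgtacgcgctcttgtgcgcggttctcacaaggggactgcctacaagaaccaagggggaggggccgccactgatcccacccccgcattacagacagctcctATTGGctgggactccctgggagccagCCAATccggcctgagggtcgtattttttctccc
Cox6b1: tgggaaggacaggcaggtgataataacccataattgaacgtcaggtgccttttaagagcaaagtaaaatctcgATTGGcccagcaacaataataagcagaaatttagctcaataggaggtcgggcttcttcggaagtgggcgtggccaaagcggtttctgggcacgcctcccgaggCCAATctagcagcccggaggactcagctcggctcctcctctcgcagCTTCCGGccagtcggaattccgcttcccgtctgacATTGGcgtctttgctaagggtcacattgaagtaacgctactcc
Cox7a1: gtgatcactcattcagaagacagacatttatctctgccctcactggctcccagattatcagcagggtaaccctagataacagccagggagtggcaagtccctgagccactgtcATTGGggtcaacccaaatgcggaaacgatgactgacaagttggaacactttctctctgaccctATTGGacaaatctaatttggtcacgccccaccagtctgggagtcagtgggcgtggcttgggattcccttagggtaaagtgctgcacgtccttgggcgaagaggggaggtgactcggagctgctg
Cox7a2: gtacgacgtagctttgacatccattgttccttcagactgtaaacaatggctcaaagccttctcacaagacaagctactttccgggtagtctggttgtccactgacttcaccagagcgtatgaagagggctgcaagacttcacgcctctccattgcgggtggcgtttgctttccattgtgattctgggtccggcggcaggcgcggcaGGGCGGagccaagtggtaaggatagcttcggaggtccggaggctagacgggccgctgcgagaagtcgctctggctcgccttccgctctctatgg
Cox6b2 had 10 CG dinucleotides in this stretch and Cox6b1 17, and Cox7a1 had 7 and Cox7a2 20, with a median of 21 over the tested genes. The Cox6b2 and Cox6b1 stretches each held 3 CCAAT boxes. These are counts of letters and say nothing of which factors bind there.

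Over the start regions of all 67 members matched to RefSeq, the motif of the respiratory factor NRF1 was found in 25.4%, against 11.2% of the 9339 tested genes with such a region. The YY1 motif AAGATGGC was in 14.9% of members and 5.03% of tested genes, CCGGAAG in 23.9% and 19.6%, CCAAT in 44.8% and 43.7%, the E-box CACGTG in 8.96% and 12.05%, and TATAAA in 10.4% and 8.89%. GC boxes were found in 38.8% of members and 69.9% of tested genes. Both strands were searched, and motifs could overlap. The 17 of 67 members with the NRF1 motif include Ndufs6, Ndufa8, Uqcrc1, Sdha, Sdhd, Cox6a1, Atp5g2, Atp5g3 and Ndufs5. Within these 300 bases Cox6b2 and Cox7a1 lacked it, as did their general partners Cox6b1 and Cox7a2.

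The next question was how close the clones came to ES cells. The subunit genes as a set lay near the ES level, with single genes on both sides. In 3F+IL6 limma called 21 of 78 members higher and 16 lower than in ES, against 33.1% and 30.3% of all tested genes, and in 4F 31 higher and 12 lower, against 33.7% and 33.5%. The median log2 difference of the members was 0.00 in 3F+IL6 and 0.07 in 4F, against 0.01 and 0.00 over all tested genes. The split of calls moved with the scaling. On the TPM scale it was 16 higher and 25 lower of 79 members in 3F+IL6, and 23 and 18 in 4F. Of 14187 genes tested on that scale, 4269 were higher and 4514 lower in 3F+IL6, and 4155 and 5152 in 4F. With median centring the split was 14 and 20 in 3F+IL6 and 30 and 11 in 4F. Over all 13200 genes it was 4133 and 4319, and 4486 and 4427. Quantile normalization gave 20 and 19, and 29 and 15, against 3692 and 4592, and 3998 and 4722 over all genes. Without 3F+IL6 clone 2 the 3F+IL6 calls were 21 higher and 19 lower. Without ES 1 they were 13 higher and 10 lower, without ES 2 12 were higher, and without ES 1 the 4F calls included 7 lower. Of the 12 fibroblast markers, 11 were higher and 1 lower in 3F+IL6 than in ES, and 10 higher and 2 lower in 4F, with the sums given above; their part in these differences was not tested.

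Complex IV leaned upwards in 4F, with 11 of 14 tested members higher and 1 lower than in ES. The lean was weaker in 3F+IL6, with 7 higher and 3 lower. The medians were 0.35 in 4F and 0.20 in 3F+IL6. Of all tested genes, 33.7% were higher and 33.5% lower in 4F, and 33.1% and 30.3% in 3F+IL6. On the TPM scale the medians were 0.18 in 4F and 0.13 in 3F+IL6. Of 15 members tested on that scale, 9 were higher and 2 lower in 4F, and 6 and 4 in 3F+IL6. The higher members include Cox7b2 in both kinds of clone, which passed the filter only through libraries where it is high. Cox7a2l rose by 0.69 in 3F+IL6 (SE 0.07, limma adjusted p = 0.00020) and 0.91 in 4F (adjusted p = 6.1e-05), and Cox7a2 by 0.44 and 0.58. Cox7a1, in contrast, had a difference of -0.36 in 3F+IL6 (adjusted p = 0.036) and 0.23 in 4F (adjusted p = 0.14), and its call in 3F+IL6 was lost without ES 1, 3F+IL6 clone 2 or either 4F clone. Cox6b2 was at -0.08 in 3F+IL6 (adjusted p = 0.53; called lower without 3F+IL6 clone 1, adjusted p = 0.013) and rose by 0.43 in 4F (adjusted p = 0.010), a call lost without ES 2 or 4F clone 1.

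In complex I, 5 of 35 members were higher and 8 lower in 3F+IL6 than in ES, and 8 higher and 7 lower in 4F. Ndufa1 (chromosome X, 37187588 to 37191163), an accessory subunit needed for assembly, was at 126 and 103 RPKM in 3F+IL6, 123 and 117 RPKM in 4F, 66.6 and 59.5 RPKM in ES and 59.4 and 58.0 RPKM in MEF. The clones lay above both ES and MEF, and the lower ES library lay next to the higher MEF library. Its log2 difference over ES was 0.85 in 3F+IL6 (SE 0.10, limma adjusted p = 0.00035) and 0.92 in 4F (adjusted p = 0.00022). Ndufv3 rose by 0.65 in 3F+IL6 and 0.73 in 4F. Ndufs1, the largest core subunit, was at 46.9 and 52.3 RPKM in 3F+IL6, 47.4 and 51.2 RPKM in 4F, 73.6 and 73.1 RPKM in ES and 39.2 and 40.6 RPKM in MEF. It fell by 0.56 in 3F+IL6 (SE 0.07, limma adjusted p = 0.00045) and by 0.56 in 4F (adjusted p = 0.00038), with every clone library between those of ES and MEF. The accessory subunits Ndufb8, at 175 and 181 RPKM in 3F+IL6, 211 and 189 RPKM in 4F and 253 and 242 RPKM in ES, and Ndufa2, at 113 and 118 RPKM in 3F+IL6, 112 and 104 RPKM in 4F and 148 and 145 RPKM in ES, also fell. The differences were -0.47 (adjusted p = 0.00061) and -0.31 for Ndufb8, and -0.34 and -0.43 (adjusted p = 0.00071) for Ndufa2, each in 3F+IL6 and then in 4F.

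**Figure D4:**
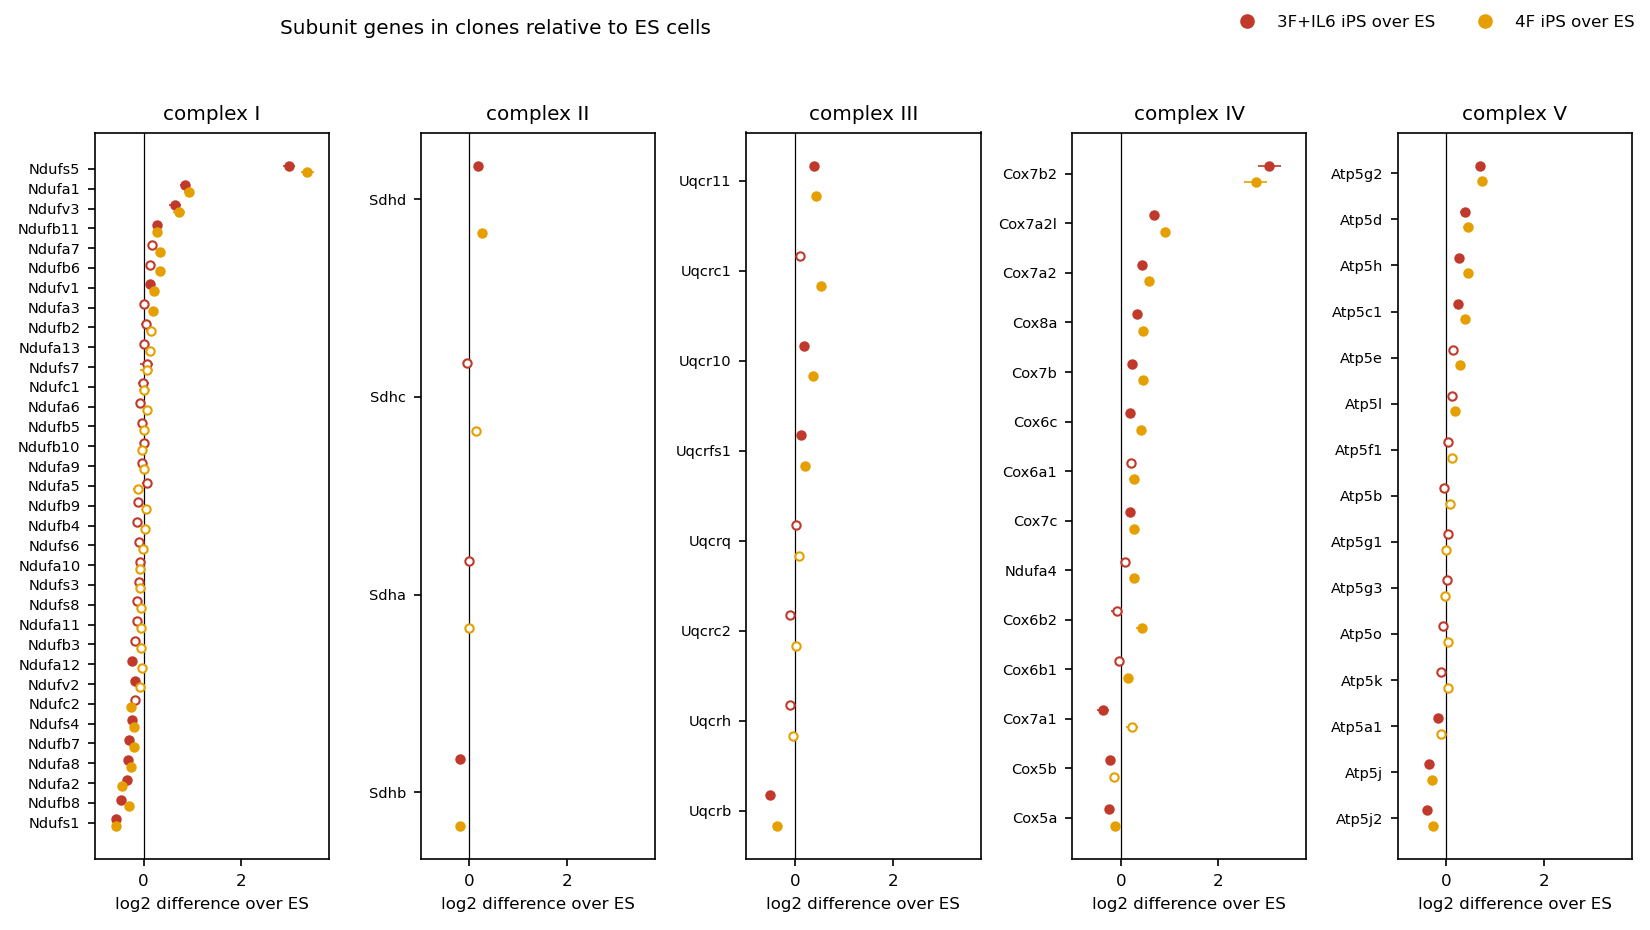
Log2 difference of log2(RPKM + 1) over ES for tested subunit genes, by complex, in 3F+IL6 and 4F clones, with bars for 1 standard error and filled points for genes called by limma. Most genes lie within 0.5 of 0, while Ndufs5 and Cox7b2 lie near or beyond 3 in both kinds of clone.

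In complexes II, III and V the differences from ES were smaller. Sdhb fell by 0.19 in 3F+IL6 and by 0.19 in 4F, and Sdhd rose by 0.18 and 0.27; each Sdhb call was lost without ES 1, that in 4F also without 4F clone 2, and the Sdhd call in 3F+IL6 without ES 1 or ES 2. Uqcrb, which binds ubiquinone in complex III, was at 192 and 186 RPKM in 3F+IL6, 201 and 212 RPKM in 4F, 267 and 269 RPKM in ES and 155 and 152 RPKM in MEF. It fell by 0.50 in 3F+IL6 (SE 0.05, limma adjusted p = 0.00011) and by 0.37 in 4F (adjusted p = 0.00037). Of its 50-base stretches, 43.2% were also found in other annotated genes, so reads could be split between them.

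The c subunit of ATP synthase, which forms the rotor ring, is encoded by 3 genes that yield the same mature protein. Atp5g2 was at 562 and 515 RPKM in 3F+IL6, 571 and 534 RPKM in 4F, 337 and 328 RPKM in ES and 237 and 245 RPKM in MEF. Atp5g1 was at 231 and 264 RPKM in 3F+IL6, 249.6 and 228 RPKM in 4F, 239 and 243 RPKM in ES and 124 and 125 RPKM in MEF. Atp5g3 was at 565 and 644 RPKM in 3F+IL6, 600.3 and 579.6 RPKM in 4F, 603 and 600.2 RPKM in ES and 385 and 403 RPKM in MEF. All 3 genes were higher in pluripotent cells than in MEF, but Atp5g2 alone of them was called between the clones and ES, at 0.69 in 3F+IL6 (SE 0.06, limma adjusted p = 7.8e-05) and 0.73 in 4F (adjusted p = 6.2e-05). It supplied 38.8% ± 3.7 of the family's RPKM in 3F+IL6 and 40.0% ± 0.26 in 4F, against 28.3% ± 0.43 in ES and 31.7% ± 0.11 in MEF.

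Ndufs5 (chromosome 4, 123712710 to 123718202, minus strand), an accessory subunit of complex I, had the largest difference between ES and MEF in the downward direction and, in 4F, the largest over ES. It was at 93.7 and 94.7 RPKM in 3F+IL6, 109 and 138 RPKM in 4F, 11.9 and 10.4 RPKM in ES and 69.5 and 82.1 RPKM in MEF. The log2 difference over ES was 2.97 in 3F+IL6 (SE 0.13, limma adjusted p = 6.5e-06) and 3.35 in 4F (adjusted p = 4.4e-06), and that of ES over MEF -2.66 (adjusted p = 1.2e-06). BC002163 (chromosome 16, 42955631 to 42955949, plus strand), a processed pseudogene of Ndufs5, ran the opposite way, at 34.8 and 34.8 RPKM in 3F+IL6, 41.2 and 20.5 RPKM in 4F, 127 and 127 RPKM in ES and 33.4 and 21.3 RPKM in MEF. Summed, the pair was at 129 and 129.5 RPKM in 3F+IL6, 150.3 and 158 RPKM in 4F, 139 and 138 RPKM in ES and 103 and 103 RPKM in MEF, so that ES lay between the 3F+IL6 and 4F clones. RPKM of genes of different length do not add as reads do, so this sum is a description.
The first 120 coding bases of Ndufs5 and the matching stretch of the pseudogene show how alike the copies are, with capitals at the bases that differ (mm10, GENCODE M21 coordinates).
Ndufs5: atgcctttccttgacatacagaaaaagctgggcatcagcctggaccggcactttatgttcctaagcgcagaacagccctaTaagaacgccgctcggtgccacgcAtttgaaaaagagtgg
BC002163: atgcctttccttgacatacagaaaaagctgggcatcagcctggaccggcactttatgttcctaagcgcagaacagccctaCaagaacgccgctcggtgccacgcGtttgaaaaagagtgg
The substitutions, counted from 1 at the ATG and written from Ndufs5 to BC002163, are T81C and A105G, the only 2 over 319 aligned bases (99.4% identity). Of the 50-base stretches of the Ndufs5 transcript, 31.1% also lie in another annotated gene. The libraries were read at 50 bases, and how the authors treated reads that match both copies is not given in the sources used here. ES cells differ from all other samples in strain, and strain, cell type and read assignment cannot be told apart here.

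**Figure D5:**
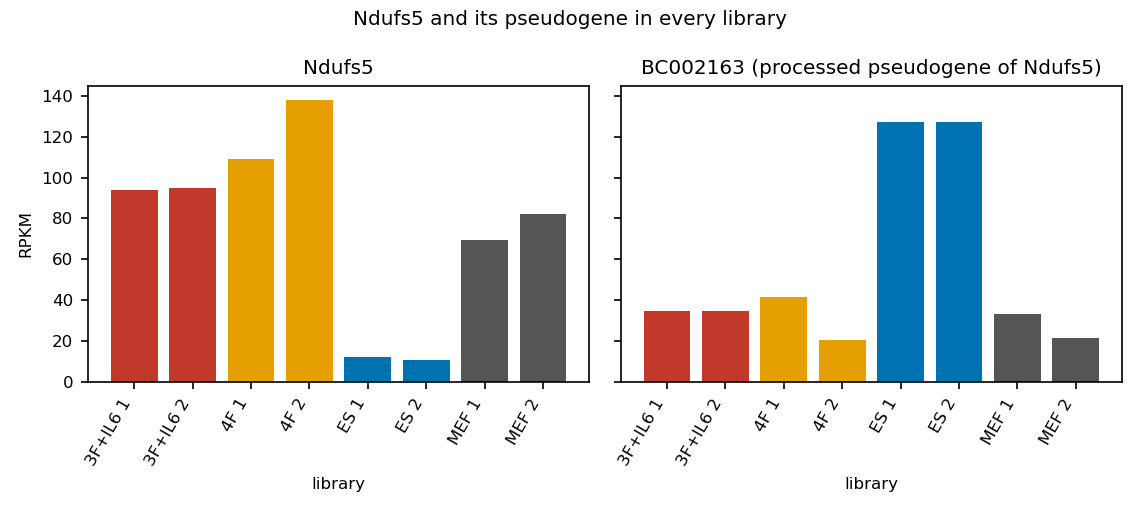
RPKM of Ndufs5 and of its processed pseudogene BC002163 in each of the 8 libraries, as bars from 0. Both ES libraries are low for Ndufs5, at 11.9 and 10.4, and high for BC002163, at 127 each, and no other library shows this order.

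The last comparison set 3F+IL6 clones against 4F clones. Of 78 members limma called 0 higher and 1 lower in 3F+IL6, against 0.773% and 0.568% of all tested genes. The differences were small and mostly negative: 66 of 78 were below 0, the median was -0.08 against 0.03 over all tested genes, and 26 had an unadjusted p under 0.05, all lower in 3F+IL6. Among all 13200 tested genes, 3198 had an unadjusted limma p under 0.05, counted in either direction. The called gene was Uqcrc1, a core protein of complex III, at 215 and 232 RPKM in 3F+IL6, 309 and 295 RPKM in 4F, 212 and 207 RPKM in ES and 135 and 138 RPKM in MEF. It fell by 0.43 (SE 0.05, limma adjusted p = 0.026), and 3F+IL6 lay near ES while 4F stood above. The call was lost in the fit of only the 4 clone libraries (adjusted p = 0.34), and without either ES library, either 4F clone or either MEF library (adjusted p = 0.088 to 0.16). Without 3F+IL6 clone 1 or without clone 2 more members were called lower, but more of all tested genes were called too, in both directions. The median over all tested genes was then 0.06 and 0.00. Each such fit leaves 1 library in the 3F+IL6 group.

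By complex, the medians of 3F+IL6 over 4F were -0.08 in complex I, -0.05 in complex II, -0.10 in complex III, -0.17 in complex IV and -0.08 in complex V, and 13 of 14 complex IV members were below 0. Apart from Uqcrc1, the differences of greatest size were those of Cox7a1, at -0.60 (SE 0.12, limma adjusted p = 0.065), Cox6b2, at -0.51 (adjusted p = 0.067), and Ndufs5, at -0.38 (adjusted p = 0.15), none of which was called. Without 3F+IL6 clone 1 both Cox7a1 and Cox6b2 were called lower, and without clone 2 Cox6b2 was. For Cox7a1 and Cox6b2 both 3F+IL6 libraries lay below both 4F libraries, in the values given above.

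Genes around the respiratory chain were read for comparison. Of all tested genes, 49.4% were higher and 32.6% lower in 3F+IL6 than in MEF. The shares were 49.2% and 34.4% in 4F, and 49.7% and 32% in ES. Among 9 tested genes that the symbol rule missed or left out, 8 were higher and 0 lower in 3F+IL6 than in MEF, 8 higher and 0 lower in 4F, and 6 higher and 1 lower in ES. They include Cox4i1, the general form of a core-bound complex IV subunit, at 549.7 and 554 RPKM in 3F+IL6, 647 and 618 RPKM in 4F, 546 and 548 RPKM in ES and 341 and 346 RPKM in MEF, which follows the members. Of 28 tested assembly factors, 16 were higher and 6 lower in 3F+IL6 than in MEF. The counts were 18 and 6 in 4F, and 17 and 5 in ES. The 21 genes of the tricarboxylic acid cycle and pyruvate entry gave 14 higher and 3 lower in 3F+IL6, 15 and 3 in 4F, and 14 and 4 in ES. For 10 electron and nucleotide carriers the counts were 6 and 2 in 3F+IL6, 6 and 2 in 4F, and 7 and 1 in ES. Cycs, cytochrome c itself, was at 61.0 and 76.0 RPKM in 3F+IL6, 69.1 and 74.5 RPKM in 4F, 65.9 and 64.8 RPKM in ES and 67.6 and 68.0 RPKM in MEF, where the range of the 3F+IL6 clones holds all the other libraries.

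Of 21 tested regulators of mitochondrial genes, 16 were higher and 4 lower in 3F+IL6 than in MEF, 16 and 3 in 4F, and 16 and 5 in ES. Against ES, 7 were higher and 8 lower in 3F+IL6 and 9 higher and 8 lower in 4F. Of all tested genes, 33.1% were higher and 30.3% lower than ES in 3F+IL6, and 33.7% and 33.5% in 4F. Tfam, which packages and transcribes mitochondrial DNA, was at 25.8 and 31.1 RPKM in 3F+IL6, 26.3 and 29.3 RPKM in 4F, 15.1 and 14.9 RPKM in ES and 8.31 and 8.70 RPKM in MEF, an order of clones, ES and MEF without overlap. Nrf1, the factor named for nuclear respiratory genes, was at 16.9 and 18.7 RPKM in 3F+IL6, 16.8 and 16.2 RPKM in 4F, 27.4 and 27.6 RPKM in ES and 10.9 and 9.78 RPKM in MEF. Here ES was highest, and Nrf1 fell by 0.60 in 3F+IL6 and by 0.70 in 4F relative to ES, while Tfam rose by 0.88 and 0.85. The coactivator Ppargc1a was at 0.058 RPKM or below in every library. Relative to ES, 8 assembly factors were higher and 12 lower in 3F+IL6 and 9 and 11 in 4F, 10 and 5 genes of the tricarboxylic acid cycle list in 3F+IL6 and 9 and 4 in 4F, and 2 and 6 carriers in 3F+IL6 and 3 and 6 in 4F. In 3F+IL6 against 4F, limma called 0 genes of these lists, and 1 fibroblast marker higher, and 1 muscle marker higher and 1 lower.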

How the data were processed

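Each of the 8 libraries has a deposited table of 23389 symbols with 1 value each. No header names a unit, and the deposited values were read as RPKM from the values; 51.9% to 55.2% of low values came out whole within 0.1 read, so no counts were recovered and no count test was run. Per the labels, 500 ng of total RNA was poly-A selected, prepared with the TruSeq kit and read at 50 bp. The build is mm10, per the submitters' processing notes. Aligner, counter, gene models, strand use and the handling of multi-mapping reads: not given in the sources used here. A second header line in each table was skipped.

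limma 3.58.1 in R 4.3.3 fitted log2(RPKM + 1) for all 8 samples, with trended variance, no block, and Benjamini-Hochberg adjustment over the 13200 genes with at least 1 RPKM in at least 2 samples; the threshold was 0.05. Levels are RPKM, and a direction of change is stated for genes past this threshold. The fit was also run on simulated data with 1 spread per gene for all libraries, so unequal spread between the groups was not tried. Python 3.11.15 summarised it. Alternatives were the pseudocount, filter, scaling, variance model, samples fitted, replicate block, each library left out and, chosen after seeing the data, array weights.

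1 member of complex I is counted but not reported here by name or value. The members and lists were chosen with earlier results of these data known. Given in full are the called members with the 3 largest differences in each direction and a mean of at least 5 RPKM in the higher group, the tissue-type isoforms and the Sdh genes. Others with values are the highest in a complex, list genes, and members picked after their values were seen. Of the 81 symbols, 80 matched a GENCODE M21 symbol and 1 a RefSeq synonym; 37 share a 50-base stretch with another gene, Atp5l over most of its length (68.5%), and their values are uncertain to that extent. P-values measure the spread between these libraries, 2 a group.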

Additional observations from a re-analysis of the deposited data

How the results depend on the processing

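Of 216 recomputed counts of called subunit genes, 186 stayed within 1.5 times the count reported. Between 3F+IL6 and 4F the number lower was 3 without a filter, 2 with a mean of at least 5 RPKM, 2 with quantile normalization, and 0 with only the 4 compared samples, with array weights or with the replicate block; leaving out a library gave 0 to 17 lower and 0 to 2 higher. Over ES, leaving out a library gave 12 to 24 higher and 10 to 19 lower for 3F+IL6 and 7 to 15 lower for 4F, and the TPM scale 25 lower for 3F+IL6. Over MEF, the number lower was counted on the TPM scale, with median centring and with quantile normalization, in that order. It was 6, 1 and 2 in 3F+IL6, 3, 1 and 2 in 4F, and 2, 2 and 2 in ES. Over all tested genes it was 5287, 4767 and 5019 in 3F+IL6, 5632, 4822 and 5090 in 4F, and 4971, 4547 and 4606 in ES. For Cox6b2 in 3F+IL6 over ES, leaving out a 3F+IL6 clone gave log2 differences of -0.25 to 0.086, on both sides of 0. Of 1638 recomputed differences of named genes, 1600 kept their call and direction, 32 lost the call, 5 gained it and 1 reversed. The cause of these shifts was not tested.

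The labels do not say that a replicate number marks a shared batch. Deviations of same-numbered libraries correlated at -0.07 to 0.28 across 8691 genes. The highest values were 0.28 for ES with MEF and 0.21 for 3F+IL6 with 4F. Whether the numbers mark anything shared was not tested. Over all tested genes, 102 were higher and 75 lower in 3F+IL6 than in 4F without the block, and 16 and 20 with it. With the number as a block, limma called 19 higher and 16 lower in 3F+IL6 over ES, 33 and 13 in 4F over ES, 70 and 0 in 3F+IL6 over MEF, 73 and 0 in 4F over MEF, 71 and 1 in ES over MEF, and 0 and 0 in 3F+IL6 over 4F, where Uqcrc1 had an adjusted p of 0.052.

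Limits are 2 libraries a group, values without counts, an ES line of another strain, and reads of 50 bases shared with pseudogenes.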

Other observations

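Some genes beside the subunit set separated the clones from ES more than most members did. Their lists as wholes did not stand out so. The median over ES was 0.01 in 3F+IL6 and 0.21 in 4F for the 9 tested genes that the rule missed or left out. For 28 assembly factors it was -0.20 and -0.10. Ndufa4l2, a relative of the complex IV subunit Ndufa4 that the rule left out, was at 89.8 and 20.2 RPKM in 3F+IL6, 75.6 and 59.2 RPKM in 4F, 0.608 and 0.355 RPKM in ES and 0.358 and 0.117 RPKM in MEF, a log2 difference over ES of 4.89 in 3F+IL6 and 5.52 in 4F. For this gene the 3F+IL6 clones differed from each other more than the 4F clones did. It passed the filter only through the clones, so its differences are descriptions. Atpif1, the inhibitor of ATP hydrolysis by ATP synthase, was at 370.2 and 321 RPKM in 3F+IL6, 383 and 333 RPKM in 4F, 217 and 223 RPKM in ES and 150.4 and 162 RPKM in MEF, and rose over ES by 0.65 in 3F+IL6 and 0.69 in 4F. Atpaf1, an assembly factor of the synthase head, was at 11.1 and 12.1 RPKM in 3F+IL6, 15.3 and 14.1 RPKM in 4F, 26.7 and 24.3 RPKM in ES and 7.61 and 8.69 RPKM in MEF, and fell by 1.07 in 3F+IL6 and by 0.75 in 4F relative to ES.

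Of all tested genes, 33.1% were higher and 30.3% lower than ES in 3F+IL6, and 33.7% and 33.5% in 4F. Over MEF the shares were 49.4% and 32.6% in 3F+IL6, 49.2% and 34.4% in 4F, and 49.7% and 32% in ES. The 19 genes of glycolysis and lactate handling gave 13 higher and 2 lower in 3F+IL6 than in ES and 13 and 3 in 4F, and over MEF 18 and 0 in 3F+IL6, 19 and 0 in 4F and 10 and 7 in ES. Their summed level was 18211 and 11972 RPKM in 3F+IL6, 16967 and 15713 RPKM in 4F, 7466 and 7575 RPKM in ES and 6511 and 6487 RPKM in MEF, a wider gap between clones and ES than that of the subunit genes. The carrier isoforms Slc25a4, at 207 and 205 RPKM in 3F+IL6, 194 and 188 RPKM in 4F, 318 and 315 RPKM in ES and 510.0 and 509.5 RPKM in MEF, and Slc25a5, at 924 and 816 RPKM in 3F+IL6, 811 and 849.7 RPKM in 4F, 572 and 572 RPKM in ES and 374 and 365 RPKM in MEF, both exchange ADP for ATP and ran in opposite directions. The 4 brown fat markers, of which 3 were tested, summed to at most 1.91 RPKM in 3F+IL6, 2.72 RPKM in 4F, 4.47 RPKM in ES and 0.353 RPKM in MEF, where Ucp1 and Cidea were at 0.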
